A study of Mus musculus with 6 samples.

Results

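The genes described here are 10 receptor and cytotoxic granule genes of natural killer (NK) cells and killer T cells, out of 34821 gene names on the array. They were chosen by gene name from what the genes encode, with earlier results of these data known, and no probe was left out for its signal. Klrd1, Klrb1c, Ncr1, Klrk1 and Il2rb encode receptors of the cell surface, and Nkg7, Gzma, Gzmb, Prf1 and Ccl5 encode granule proteins and a chemokine. They are measured by 12 non-control probes, since Klrb1c and Nkg7 have 2 probes each and the other 8 genes have 1. All were read in LSK cells, the sorted mouse blood progenitor fraction that lacks lineage markers and carries Sca-1 and c-Kit, from 3 wild type and 3 NIKaly/aly samples. The aly allele is a germline point mutation of Map3k14, which encodes the NF-kB inducing kinase NIK, so cells other than LSK cells carry it too. No treatment, strain or age is given by the labels. The 6 one-colour arrays lay on 1 slide, with sample numbers 1, 3 and 5 for wild type and 2, 4 and 6 for NIKaly/aly. The question addressed is whether a defective NIK changes expression in this compartment.

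NK cells are innate lymphocytes that kill infected or transformed cells. A receptor pair of Klrd1 (CD94) with an NKG2 chain reads class I molecules on the target, while Klrk1 (NKG2D) and Ncr1 (NKp46) deliver activating signals. Perforin, encoded by Prf1, then opens the target membrane to granzymes, and Il2rb, the shared beta chain of the receptors for interleukin 2 and interleukin 15, keeps the cells alive. Hematopoietic stem cells and multipotent progenitors are not killers, although single genes of this set, such as Nkg7 and Gzmb, are not restricted to NK cells.

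The probes are 60-base oligonucleotides. The following are shown because they differ most plainly in detection, and the results below return to them. Positions are on the mm9 build, as the scanner files give them. The whole probe is shown for 3 of them, and the first 30 bases from the 5′ end for the others, all in lower case since no part is singled out.
Nkg7, second probe, chr7:50693148-50693207, plus strand: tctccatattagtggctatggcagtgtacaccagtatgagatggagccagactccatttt
Klrb1c, undetected probe, chr6:128734770-128734829, minus strand: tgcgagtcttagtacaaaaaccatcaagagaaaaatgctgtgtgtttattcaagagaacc
Klrb1c, detected probe, within chr6:128729611-128729670, minus strand: tgcttatgaagttggtatgctgaagacagt
Ncr1, chr7:4296176-4296235, plus strand: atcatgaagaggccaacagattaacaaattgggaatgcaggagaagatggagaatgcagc
Klrk1, within chr6:129561864-129561923, minus strand: aagcaaggcactatatttgaaagtatatag
Gzma, within chr13:113884035-113884094, minus strand: tgtctttcactccatccctgtcacttctgt
The probes of Klrb1c lie 5159 bases apart on the genome and are annotated to different transcripts of the gene, NM_008527 for the undetected probe and NM_001159904 for the detected one. Those of Nkg7 lie 382 bases apart and belong to 1 transcript, NM_024253. Exon and UTR positions of the probes were not analysed here.

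Detection differed from gene to gene. The flag used is the scanner software's call that a spot is well above background. Nkg7, Prf1 and Ccl5 were well above background on all 6 arrays, and Gzma, Gzmb and Il2rb on 5 of 6. Klrb1c passed on 4 arrays and Klrd1 on 3. Ncr1 and Klrk1 did not pass on a single array. Of the 10 genes, wild type 1, 3 and 5 detected 7, 8 and 6, while NIKaly/aly 2, 4 and 6 detected 8, 5 and 6. With the software's weaker flag, for a signal significantly above background, Ncr1 passed on 5 arrays and Klrk1 on 2. The spot of Ncr1 thus gave faint signal that the stricter flag does not count. Whether that signal comes from Ncr1 transcripts was not tested. In bulk RNA, fewer cells of a type and less RNA per cell cannot be told apart.

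Values below are log2 units in which 0 is the array's own 75th percentile of signal over 59305 non-control spots. That percentile differed between arrays, from 47.0 in wild type 1 to 225 in wild type 3, and so did the lowest value that counted as well above background. For wild type 1, 3 and 5 it lay at -1.61, -3.74 and -2.28, against -2.55, -3.39 and -1.58 for NIKaly/aly 2, 4 and 6. These minima are no strict limit, since the flag is set spot by spot: Klrb1c on wild type 5 was not well above background at -1.92. A value from an array that did not detect the gene is therefore uncertain. The share of spots well above background ran from 33.1% to 45.6%. Wild type 1 and NIKaly/aly 2 stood apart from the others by erythroid genes: the globin gene Hbb-b1 read 7.61 and 6.51 there and 2.47 to 3.18 elsewhere. Whether each sample is a separate animal is not stated, so the p-values here rest on sample-to-sample spread, part of which could be technical. The LSK label was checked against 15 stem and progenitor markers, all of which were detected on at least 1 array and 13 on all 6. The stem cell factor receptor gene Kit read 4.65 to 5.45. Ly6a, which encodes Sca-1, read 1.503 to 3.67, with a difference of -0.68 ± 0.46 (SE). Genes of mature cells were detected as well, among them the neutrophil gene S100a9 at 9.32 to 11.84.

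**Figure D1:**
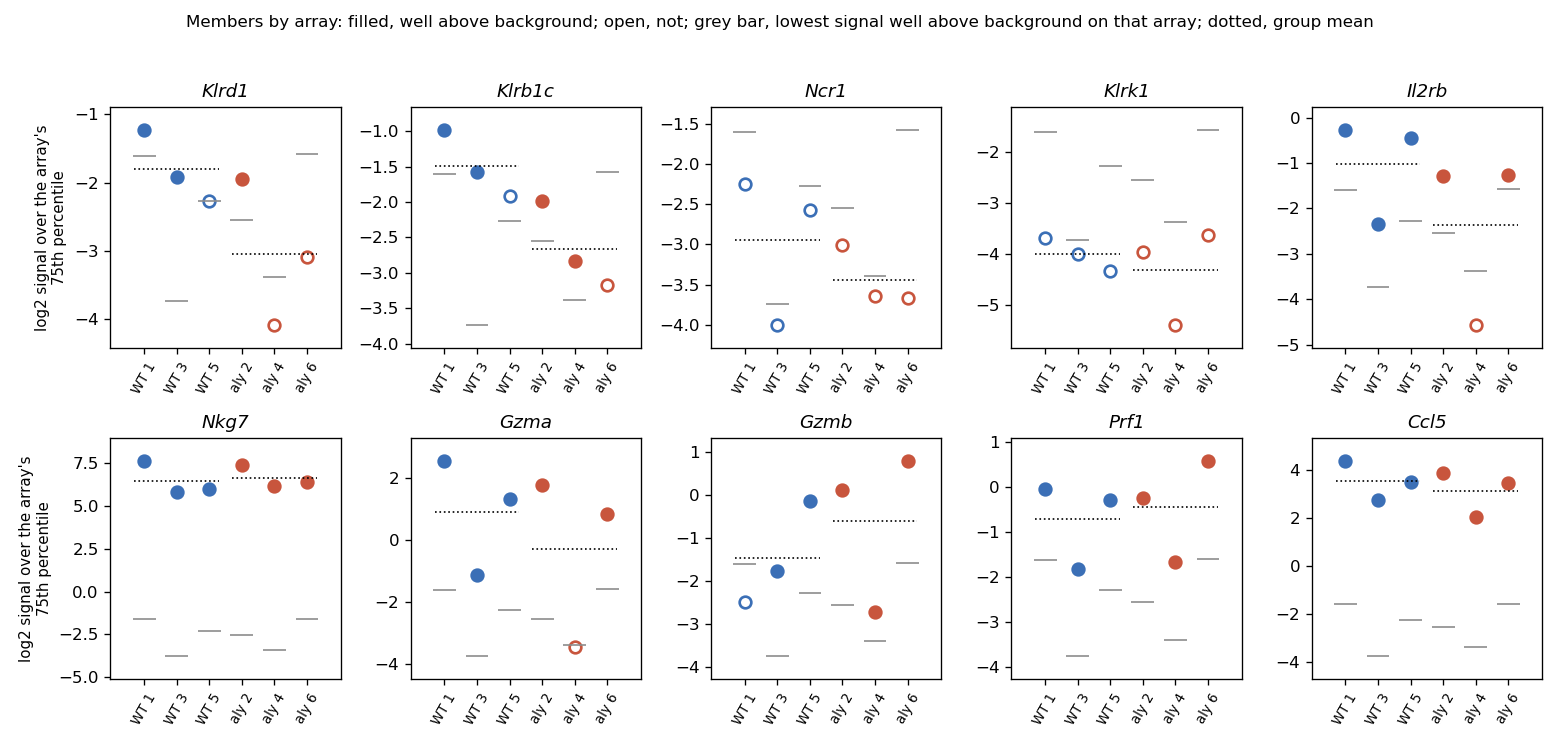
Each panel plots 1 of the 10 genes by its brighter or only probe, in log2 units over the array's 75th percentile, with wild type arrays (WT) in blue and NIKaly/aly arrays (aly) in red. Filled points are well above background, open points are not, grey bars mark the lowest signal well above background on that array and dotted lines the group means of 3 arrays. Ncr1 and Klrk1 have open points only, while Nkg7, Prf1 and Ccl5 have filled points only, and all points of Nkg7 lie between 5.81 and 7.63.

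The 3 tested receptors read lower in NIKaly/aly, by 2.25 to 2.55 times, and none of these differences passed the test. The folds include arrays that were not well above background, and with normexp background correction the log2 differences were -0.33 for Klrd1, -0.32 for Klrb1c and -0.44 for Il2rb. Values are given in the order of samples 1, 3 and 5 for wild type, then 2, 4 and 6 for NIKaly/aly. Klrd1, the CD94 chain, gave wild type values of -1.23, -1.91 and -2.27, against NIKaly/aly values of -1.95, -4.08 and -3.09. Only wild type 1, wild type 3 and NIKaly/aly 2 were well above background, and the groups overlapped because NIKaly/aly 2 read above wild type 5. The difference was -1.23 ± 0.67 (SE, 3 arrays of each genotype; limma, adjusted p = 0.99998 by Benjamini-Hochberg), and Klrd1 read lower in NIKaly/aly in each of the 3 pairs of consecutive sample numbers. Without NIKaly/aly 4 it was -0.71.

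Klrb1c, which encodes the antigen NK1.1 used to sort NK cells in some strains, gave wild type values of -0.99, -1.57 and -1.92, against NIKaly/aly values of -1.99, -2.83 and -3.18. Every NIKaly/aly value lay below every wild type value, with -1.99 and -1.92 the closest, and wild type 5 and NIKaly/aly 6 were not well above background. The difference was -1.17 ± 0.52 (SE; limma, adjusted p = 0.99998). Klrb1c was the 1 gene of the 8 tested whose groups did not overlap, against 4.57% of all tested genes. The groups overlapped with median scaling, quantile normalization and normexp background correction. With the 75th percentile of probes detected on all arrays they did not, and there the groups of Klrd1 did not overlap either. Its other probe, undetected on all 6 arrays, had signals of 4.05 to 5.59 units before scaling.

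Il2rb, the receptor chain for interleukins 2 and 15, gave wild type values of -0.28, -2.34 and -0.45, against NIKaly/aly values of -1.28, -4.56 and -1.27. The samples numbered 3 and 4 were lowest in their groups, and NIKaly/aly 4 alone was not well above background. The difference was -1.35 ± 0.98 (SE; limma, adjusted p = 0.99998). Without NIKaly/aly 4 it was -0.25.

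Ncr1 and Klrk1 were not tested, as neither reached the minimum of 3 arrays well above background. Ncr1 gave wild type signals before scaling of 9.88, 14.1 and 13.4 units, against NIKaly/aly signals of 15.6, 16.1 and 4.01. Klrk1 gave wild type signals of 3.61, 13.9 and 3.99 units, against NIKaly/aly signals of 8.08, 4.79 and 4.08. On each array both lay below that array's lowest signal well above background, which was 15.4 to 21.4 units. No fold is given for either gene, since neither genotype had an array well above background.

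The granule and effector genes showed no shared direction. Nkg7, a membrane protein of cytotoxic granules, gave wild type values of 7.63, 5.81 and 6.01, against NIKaly/aly values of 7.41, 6.16 and 6.43. Wild type 1 and NIKaly/aly 2 were highest, the other 4 arrays lay between 5.81 and 6.43, and the groups overlapped. The difference was 0.18 ± 0.56 (SE; limma, adjusted p = 0.99998), and the second probe of Nkg7 differed by 0.22 with all 6 arrays detected. Leaving out NIKaly/aly 2 gave -0.19, leaving out wild type 3 gave -0.16 and leaving out wild type 5 gave -0.057, so no direction held.

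Gzma, which encodes the tryptase granzyme A, varied most of the 10 genes between arrays, over 6.01 log2 units. Gzma gave wild type values of 2.55, -1.12 and 1.32, against NIKaly/aly values of 1.77, -3.46 and 0.83. Samples 3 and 4 were again lowest, with NIKaly/aly 4 not well above background. The genotype difference of -1.20 ± 1.39 (SE; limma, adjusted p = 0.99998) was smaller than the SD within either genotype, which was 1.87 in wild type and 2.79 in NIKaly/aly. Without NIKaly/aly 4 it was 0.39.

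Gzmb, which encodes granzyme B, the protease that activates caspases in target cells, gave wild type values of -2.50, -1.77 and -0.13, against NIKaly/aly values of 0.12, -2.73 and 0.79. Wild type 1, the array highest for Gzma, was the only one on which Gzmb was not well above background. The difference was 0.86 ± 0.96 (SE; limma, adjusted p = 0.99998) and -0.019 without samples 1 and 2. Within the consecutive pairs it was 2.62, -0.96 and 0.92, where that of Gzma was -0.78, -2.34 and -0.48. On the 5 arrays that detected Gzmb, both genes were lowest in NIKaly/aly 4 and next lowest in wild type 3.

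Prf1, the pore-forming protein, gave wild type values of -0.04, -1.81 and -0.27, against NIKaly/aly values of -0.23, -1.66 and 0.59. Samples 3 and 4 were low in both genotypes, and the groups overlapped. The difference was 0.27 ± 0.67 (SE; limma, adjusted p = 0.99998), -0.28 without wild type 3 and -0.24 without NIKaly/aly 6.

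Ccl5, a chemokine that attracts T cells and monocytes, gave wild type values of 4.38, 2.74 and 3.51, against NIKaly/aly values of 3.86, 2.06 and 3.44. The groups overlapped. The difference was -0.42 ± 0.56 (SE; limma, adjusted p = 0.99998), 0.11 without NIKaly/aly 4 and -0.0013 without wild type 1. Its probe lies at chr11:83339296-83339355 on mm9, minus strand.

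**Figure D2:**
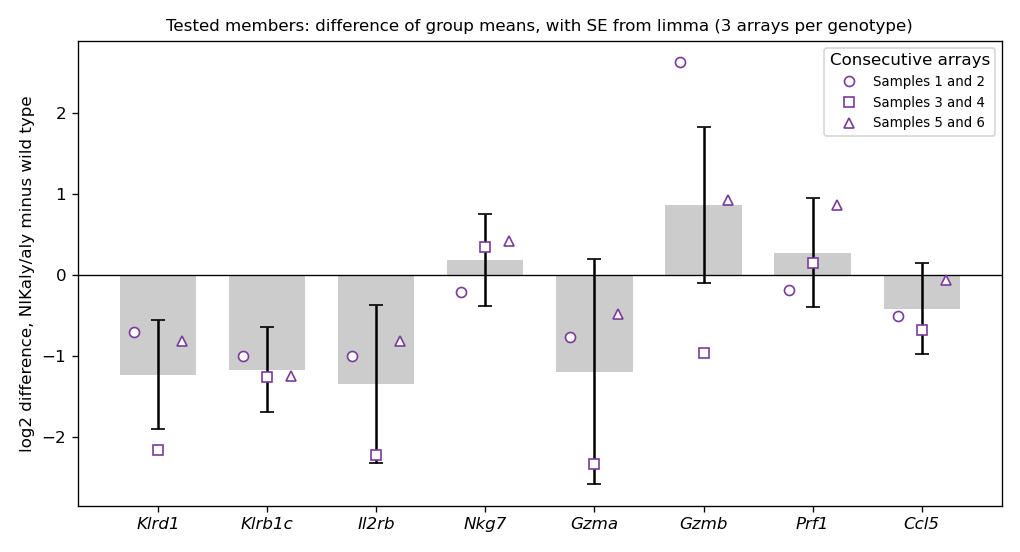
Grey bars plot the log2 difference, NIKaly/aly minus wild type, of the 8 tested genes, with the SE from limma as error bars (3 arrays per genotype). Purple symbols show the difference within each pair of consecutive sample numbers. Klrd1, Klrb1c, Il2rb, Gzma and Ccl5 lie below 0 in all 3 pairs, while Nkg7, Gzmb and Prf1 have pairs on both sides of 0. The share of all tested genes below 0 in all 3 pairs was not counted. NIKaly/aly 4 was not well above background for Klrd1, Il2rb and Gzma, nor was either of samples 5 and 6 for Klrd1 and Klrb1c.

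Across the set, 0 of the 8 tested genes passed in limma, against 0% of the 15684 genes tested. With consecutive sample numbers as a block 0 of the 8 passed as well, against 2 of all genes (0.0128%). At an unadjusted p under 0.05 there were 0 of the 8, against 208 of all genes (1.33%). The 3 tested receptors read lower in NIKaly/aly, while the differences of the 2 undetected ones, -0.50 for Ncr1 and -0.32 for Klrk1, rest on signal that was not well above background. Klrk1 turned to 0.22 without NIKaly/aly 4. Of the 5 granule and effector genes, 2 read lower and 3 higher, with a median of 0.18. The median over the 8 tested genes was -0.79, against -0.0081 over all tested genes, the basis used for the lists below. Over all 10, with the undetected Ncr1 and Klrk1 included, it was -0.46, beside 0.025 over all genes without a detection filter. Without NIKaly/aly 4 the median over the 10 was 0.17, and 4 of the 10 read lower instead of 7. This array was the lowest of the 6 for 6 of the genes. Among these, Klrd1, Il2rb, Gzma and Klrk1 were not well above background there, so their rank is uncertain. Before scaling, Klrk1 had 4.79 units there, above the 3.61 units of wild type 1. Without wild type 1, the highest array for 7 of the genes, the undetected Ncr1 among them, the median over the 10 was -0.16. With normexp it was -0.22. The difference between receptors and granule genes was not tested.

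The pairing of consecutive numbers comes from a likeness seen earlier in these data and not from the labels. Slide row 1 held samples 1 to 4 and row 2 samples 5 and 6. Within row 1 the receptors differed by -1.44 (Klrd1), -1.13 (Klrb1c) and -1.61 (Il2rb), and between the 2 arrays of row 2 by -0.82, -1.25 and -0.82. Klrd1 and Klrb1c were not well above background on either array of row 2, so their differences there rest on uncertain signal. In row 1, NIKaly/aly 4 was not well above background for Klrd1 and Il2rb.

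Other genes of the NK programme were counted from lists of related genes. Of 30 other NK receptor genes on the array, 15 were not detected on any array. These included the NKG2 chains Klrc1, Klrc2 and Klrc3, which pair with Klrd1, and Klrg1, Tigit and Cd160. Of the 9 tested, 0 passed in limma, 2 read higher and 7 lower (median -0.28, against -0.0081 over all tested genes). The 4 with the highest mean signal are also genes of other blood cells: the integrin chain Itgam (-0.17), Cd244 (-0.069), Cd96 (0.42) and the Fc receptor chain Fcgr3 (-0.49). Receptors of the Ly49 family (Klra genes) are near-identical, and their probes may not tell the members apart.

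Of 23 further granule and effector genes, 18 were detected on at least 1 array, and Gzmd, Gzme, Gzmg, Gzmk and Gzmn on none. Of the 15 tested, 0 passed, 6 read higher and 9 lower (median -0.048). The granule proteoglycan Srgn (0.25), the chemokine Ccl4 (-0.044), the lysosomal membrane protein Lamp1 (0.062) and the cathepsin inhibitor Cst7 (-0.33) were detected on all 6 arrays. Ifng, the cytokine interferon gamma, was well above background on all 6 arrays too, at -3.06 to -0.30, with a difference of -0.16 ± 0.84 (SE); it was named after its values were seen.

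Among 20 adaptors and transcription factors, Eomes, a T-box factor that NK cells need, was not detected on any array, and Tbx21, its relative, on 2. Of the 13 tested, 0 passed, 2 read higher and 11 lower (median -0.14). The signalling adaptors Tyrobp (-0.39), Fcer1g (-0.21) and Hcst (-0.089), the last of which couples to Klrk1, and the exchange factor Vav1 (-0.066) were detected on all 6 arrays. Of 21 cytokine and chemokine receptors and their signalling genes, 16 were tested and 0 passed, with 7 higher and 9 lower (median -0.070). They include Jak1 (-0.0097), Jak3 (-0.13), Stat5b (-0.19) and Il15ra (-0.20), the chain that presents interleukin 15. Eomes and Tbx21 were named after their values were seen.

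Markers of other cells were set beside the set, as killer genes are shared with them. Of 20 T cell markers, 15 were detected on at least 1 array, Cd8a, Cd8b1, Trat1, Ctla4 and Foxp3 on none, and 0 of 14 tested passed (7 higher, 7 lower, median 0.019). Cd3e, a chain of the T cell receptor complex named after its values were seen, gave wild type values of 2.58, 1.34 and 1.67, against NIKaly/aly values of 1.76, 0.95 and 1.99. The summed level of the T cell list, in units of the array's 75th percentile, was 43.0 to 74.3 for wild type against 39.6 to 60.3 for NIKaly/aly. That of the 5 receptors of the set was 0.923 to 2.04 against 0.346 to 1.11, and that of its 5 granule genes 63.9 to 226 against 76.0 to 189.9. The receptor sums include signal not well above background. Only 1 of the 5 receptors was well above it on each of wild type 5, NIKaly/aly 4 and NIKaly/aly 6, and 3 were on each other array. Lck (-0.15), Lat (0.19), Cd27 (-0.17) and Thy1 (0.056) had the highest mean signal in the T cell list.

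B cell markers read lower in NIKaly/aly in 10 of 10 tested (median -0.78), with 0 passed. All 12 were detected on at least 1 array, with a summed level of 33.2 to 136 for wild type against 18.1 to 65.1 for NIKaly/aly. Of them Cd79b differed by -0.45, Blnk by -0.67, Igj by -3.01 and Cd79a by -1.36. Igj differed by -1.06 without NIKaly/aly 6, where it was not well above background, and Cd79a by -0.15 without NIKaly/aly 4 and -0.35 without wild type 1. Macrophage markers read lower in 6 of 6 tested (median -0.81, 0 passed); 8 of the 11 on the array were detected, and Mrc1, Mertk and Marco were not. Their summed level was 29.5 to 51.3 for wild type against 19.4 to 24.6 for NIKaly/aly, without overlap. Without Csf1r it was 6.69 to 14.1 against 5.78 to 10.67, and the groups overlapped. Csf1r differed by -1.17 (unadjusted p = 0.0075 in limma), Cd68 by -0.24, Vcam1 by -0.31 and Emr1 by -0.57. Their part in the lower receptor values was not tested.

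Of 12 mast cell and basophil markers, cells that can also carry granzyme B, 6 were detected and 6 were not, among them Mcpt4 and Cma1. The 6 tested differed by a median of -0.16 (1 higher, 5 lower, 0 passed), with Hdc at -0.59, Prss34 at -0.16, Cpa3 at -0.19 and Mcpt8 at -0.064. Their summed level was 85.7, 19.4 and 59.98 for wild type against 69.4, 15.1 and 40.4 for NIKaly/aly, lowest in samples 3 and 4, as Gzma was. Plasmacytoid dendritic cell markers (10 of 10 detected) had a median of -0.17, with 2 higher, 7 lower and 0 passed, and a summed level of 225 to 258 for wild type against 159.7 to 219.7 for NIKaly/aly, where the groups did not overlap. They overlapped when any of 5 of the 10 genes was left out, and without Irf8 the sums were 187 to 239 against 144 to 211. Of these, Siglech differed by -0.17, Bst2 by -0.17, Irf8 by -1.22 (unadjusted p = 0.010 in limma) and Tcf4 by 0.14.

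Wild type 1 and NIKaly/aly 2, the highest arrays for Nkg7, Gzma and Ccl5, were also the highest for 7 of the 13 comparison lists. These were the B cell, mast cell and basophil, adaptor, cytokine receptor, neutrophil, platelet and erythroblast lists. Adaptors and transcription factors summed to 418 and 318 there and to 162 to 235 elsewhere, and cytokine receptors to 97.3 and 97.8 there and to 73.8 to 88.9 elsewhere. B cell markers summed to 136 and 65.1 there and to 18.1 to 41.3 elsewhere. Erythroblast markers summed to 447 and 265 in wild type 1 and NIKaly/aly 2 and to 47.7 to 89.6 elsewhere (9 of 10 detected, 7 tested, 2 higher, 5 lower, 0 passed, median -0.27). Mature neutrophil markers, all 10 detected, summed to 7614 and 4398 in the same samples and to 1140.4 to 4005 elsewhere (0 higher, 10 lower, 0 passed, median -0.17). Platelet markers, all 8 detected, summed to 49.6 and 49.2 there and to 31.0 to 40.4 elsewhere (3 higher, 5 lower, 0 passed, median -0.024). Their part in the values of these genes was not tested. Without samples 1 and 2, Nkg7 differed by 0.38, Gzma by -1.41, Ccl5 by -0.37, Prf1 by 0.50, Klrd1 by -1.50, Klrb1c by -1.26 and Il2rb by -1.52.

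**Figure D3:**
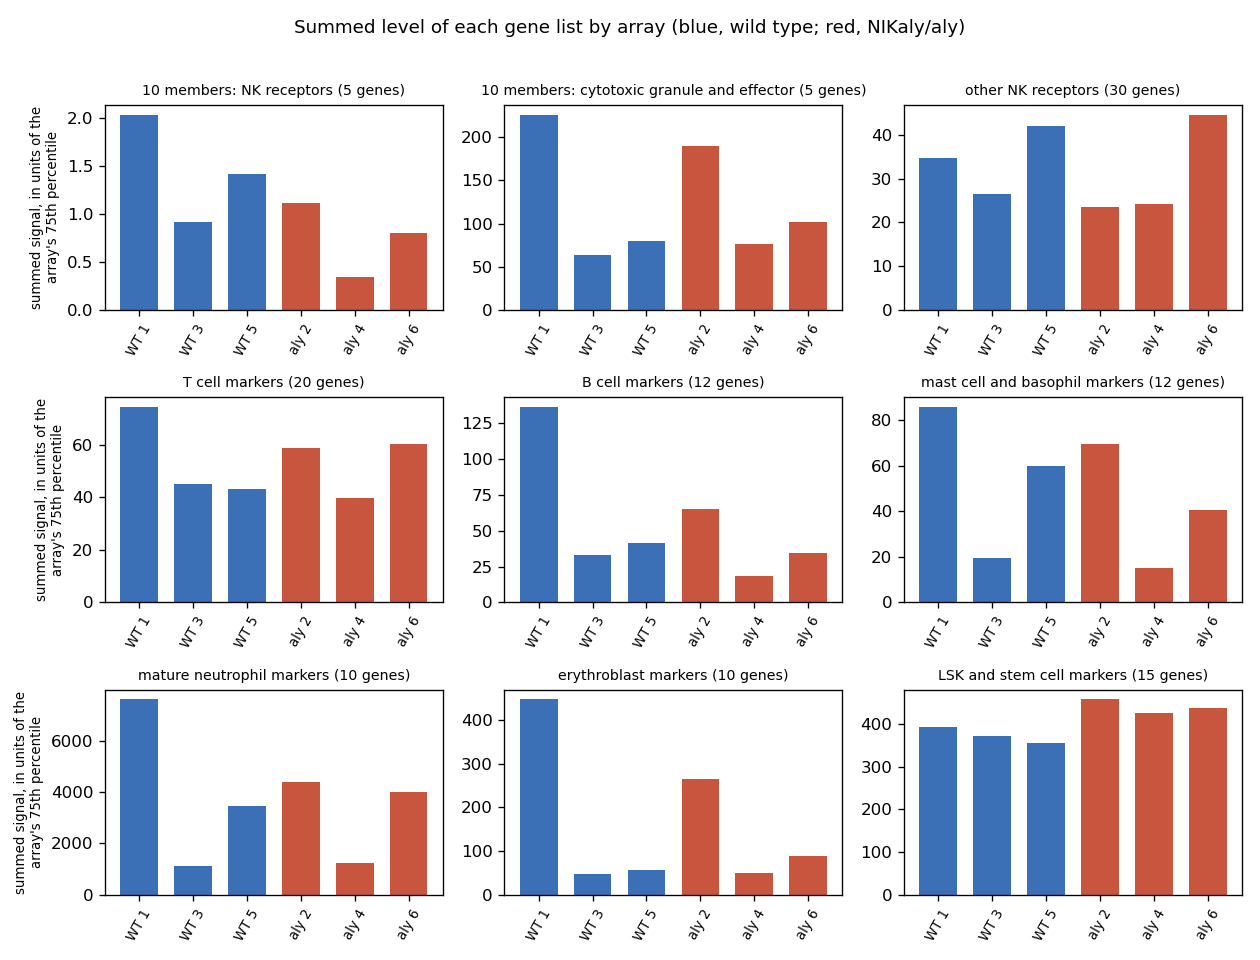
Bars give, for each array, the summed signal of a gene list in units of that array's 75th percentile, for the 5 receptors and 5 granule genes of the set and 7 comparison lists; wild type is blue and NIKaly/aly red, and each panel has its own axis from 0. Wild type 1 is highest for both groups of the set and for the B cell, mast cell and basophil, neutrophil, erythroblast and T cell lists. The stem cell list ranges only from 356 to 457. The receptor bars include Ncr1 and Klrk1, which were not well above background on any array.

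The genes whose 6 values ran closest to the mean profile of the 8 tested genes were sought among all tested genes, by root mean square distance after each gene's own mean was removed. They were Mtus1 (distance 0.12 log2 units), Klra16 (0.16), a Ly49 family entry, Gimap3 (0.16), a GTPase gene of lymphocytes, a probe without a gene name (0.17) and Gm10693 (0.20). Of the 8 themselves, Ccl5 lay nearest to their mean (0.22) and Gzmb farthest (1.19). With 6 arrays, of which consecutive ones resemble each other, such distances describe these samples only.

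Promoter sequences from RefSeq on GRCm38.p6 were available for 7 of the 10 genes, and the 250 bases before the start were searched on both strands for 3 motifs of lymphocyte factors. These were TCACAC, a core of T-box sites, TGTGGT, a Runx core, and AGGAAG, an Ets core, and no match of one motif overlapped a match of another. A TGTGGT match lay in all 7, while 14.0% of 32851 promoter windows of this length hold it. TCACAC lay in 3 of the 7 (Ncr1, Nkg7 and Gzmb), against 12.3%, and AGGAAG in 3 (Klrb1c, Nkg7 and Prf1), against 29.5%. Of these windows, 3 are printed with the matches in capitals, for a gene detected on all 6 arrays, on 5 and on none.
Nkg7, chr7:43436888-43437137, plus strand: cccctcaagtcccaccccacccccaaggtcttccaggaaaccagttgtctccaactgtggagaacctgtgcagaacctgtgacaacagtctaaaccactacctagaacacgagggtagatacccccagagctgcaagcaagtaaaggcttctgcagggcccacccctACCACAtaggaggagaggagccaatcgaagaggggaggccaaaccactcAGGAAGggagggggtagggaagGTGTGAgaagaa
Gzmb, chr14:56262335-56262584, minus strand: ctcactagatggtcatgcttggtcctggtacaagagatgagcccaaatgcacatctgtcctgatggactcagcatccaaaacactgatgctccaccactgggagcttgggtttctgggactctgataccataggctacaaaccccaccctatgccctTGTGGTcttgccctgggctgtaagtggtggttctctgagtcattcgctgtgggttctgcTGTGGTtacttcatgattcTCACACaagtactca
Ncr1, chr7:4337465-4337714, plus strand: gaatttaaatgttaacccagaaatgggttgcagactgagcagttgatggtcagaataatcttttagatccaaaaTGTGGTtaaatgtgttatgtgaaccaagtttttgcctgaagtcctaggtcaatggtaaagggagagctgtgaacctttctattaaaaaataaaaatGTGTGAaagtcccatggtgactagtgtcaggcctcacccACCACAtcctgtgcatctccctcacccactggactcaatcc
The first base of the TCACAC match lies 12 bases before the start of Nkg7, 15 before that of Gzmb and 80 before that of Ncr1. Ncr1 has another promoter entry with a different start, before which the match lies 89 bases. The undetected Ncr1 thus holds the same 2 motifs as the detected Gzmb. A match describes letters in a window, and no binding was measured.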

How the data were processed

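Signal was measured on 6 one-colour Agilent arrays. Per the file headers, the deposited intensity of each spot comes from Agilent Feature Extraction 10.7.3.1, which subtracts background and replaces low values by a surrogate. The authors' deposited series table of intensity equals this signal divided by each array's median over non-control spots.

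Here log2 of the processed signal, less the array's 75th percentile, was averaged over the spots of a probe, without control spots and spots with a feature outlier flag. No spot was saturated. A probe entered the test when 3 or more of the 6 arrays had it well above background (21242 of 55681 probes, 22 of them lacking a value). The probe with the highest mean stood for a gene, leaving 15684 genes. The genotype difference was fitted by limma 3.58.1 under R 4.3.3 (lmFit, eBayes with intensity trend, 4 residual degrees of freedom, two-sided, Benjamini-Hochberg at 0.05). The fit was tested on simulated data with independent arrays, for the size and sign of known changes. Those data lack the likeness of consecutive arrays seen here, and give no measure of power for these genes. Scaling, background correction (normexp, offset 50), filter, probe choice, weights, blocks and samples were varied. The genes, lists and alternatives were chosen with earlier results of these data known. Named were all 10 genes and, per list, up to 4 tested genes with the highest mean signal, plus the 5 nearest profiles; genes named outside this rule are marked, except Ly6a, which defines the sort.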

Additional observations from a re-analysis of the deposited data

How the results depend on the processing

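With 6 arrays on 1 slide, depth of signal over background limits the dim genes: Ncr1 and Klrk1 have no test, and Klrd1 and Klrb1c have undetected arrays in both genotypes. The sums of lists without 1 gene and the value of Igj without 1 array were added after seeing the data. None of the 10 genes passed in any alternative that was run and could test it. The number of all genes past the threshold was 0 as reported, 10 with median scaling, 10 with the authors' deposited table (which repeats median scaling), 1 with normexp, 2 without a filter, 5 with array weights, 2 with consecutive sample numbers as a block, and 0 to 1 leaving out 1 array (1 without wild type 3). No scaling or background correction turned the sign of a tested gene. Directions turned as follows, and the cause was not tested. Leaving out 1 array, differences ranged from -0.19 to 0.75 for Nkg7, -2.23 to 0.39 for Gzma, -0.28 to 0.88 for Prf1 and -0.82 to 0.11 for Ccl5. With array weights Gzmb was -0.86 and Prf1 -0.076. Without samples 1 and 2 Gzmb was -0.019, and in slide row 1 alone Prf1 was -0.022. The median over the 10 genes was -0.92 to 0.17 leaving out 1 array, and has no value with only genes detected on all 6 arrays, which keeps 3 of them. The labels give no number to both genotypes. No paired analysis was possible because of this, other than the block above, which follows a likeness seen in the data. The lowest adjusted p of a member with it was 0.418 (Il2rb), and the range of that lowest p over all alternatives was 0.327 to 1.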

Other observations

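A few genes linked to NK cells and their progenitors, outside the naming rule and picked after their values were seen, had groups that did not overlap, as 4.57% of all tested genes did. The lists of related NK genes held 9 tested receptors, 15 granule genes, 13 adaptors and factors, and 16 cytokine receptor genes. Of these, 0, 0, 1 and 2 had an unadjusted p under 0.05 in limma, against 1.33% of all tested genes, and those 3 are given here. The groups of Il15, Serpinb6b and Syk, from the same lists, did not overlap either. A full count over the lists was not made, so no share of the lists stands beside the 4.57%. Tox, a nuclear factor needed for innate lymphoid development, gave wild type values of 0.35, 0.50 and -0.19, against NIKaly/aly values of 0.94, 0.90 and 1.35, a difference of 0.84 ± 0.30 (SE; limma, adjusted p = 0.99998). Il18r1, a chain of the receptor for interleukin 18, gave wild type values of -0.96, -0.04 and -0.31, against NIKaly/aly values of 0.18, 1.07 and 0.32, a difference of 0.96 ± 0.38. Cx3cr1, the receptor for fractalkine, gave wild type values of 0.63, 0.91 and 0.25, against NIKaly/aly values of -0.26, 0.04 and -1.24, a difference of -1.08 ± 0.40. Cx3cr1 was well above background on 5 of the 6 arrays, while Tox and Il18r1 were on all 6. All 3 had an unadjusted p under 0.05 and none passed the adjustment. Whether their groups overlap with other scalings was not examined.

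The stem and progenitor markers summed to 356 to 393 for wild type against 426 to 457 for NIKaly/aly, in units of the array's 75th percentile, without overlap. Without Cd34 the sums were 207 to 249.6 against 241 to 279, and the groups overlapped. Of the 14 tested, 10 read higher and 4 lower, with a median of 0.20 and 0 passed in limma. Those with the highest mean signal were Cd34 (0.31), Flt3 (0.13), Meis1 (0.30) and Kit (0.18).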
